A study of Mus musculus with 14 samples.

Results

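The TNF superfamily ligands and receptors were examined in the epididymal fat pad of male mice, over 39 genes: 15 ligands and 24 receptors. The members were taken by symbol, as Tnf, Lta, Ltb, Ltbr, Fas, Fasl, Cd27, Cd40, Cd40lg, Cd70 and every Tnfsf or Tnfrsf gene whose probe set carries a single symbol. They are 39 of the 19937 genes measured, and each is read by 1 probe set. A further row that carries several family symbols was not taken. The rule used no measured value, but it was chosen with earlier results of these data known. The values come from 14 Affymetrix arrays hybridised with RNA of whole fat pads. There were 3 arrays of C57BL6/J wild type mice (WT) on normal diet and 3 of WT mice on a Western diet with 42% milk fat. The other genotype, EKO, which the labels name with apolipoprotein E and place on the same strain, gave 4 arrays on each diet. All mice were male and ate their diet for 24 weeks from 8 weeks of age. The labels call the arrays of a group biological replicates and say nothing more of the EKO allele.

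The superfamily pairs ligands, most of them trimers on the surface of a cell, with receptors on the same or a neighbouring cell. Receptors with a death domain can start caspase activation, while the others recruit TRAF adaptors that switch on NF-kB and MAP kinases, and a few receptors lack signalling parts and act as decoys that bind ligand. In fat of obese rodents TNF is known as a product of macrophages that lowers insulin action in adipocytes.

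The arrays fit their labels where this could be read. Apoe was lower in EKO by log2 fold changes of -3.67 ± 0.16 on normal diet and -3.36 ± 0.16 on Western diet (± SE). The 8 adipocyte markers had a mean level of 13.09 to 13.21 over the groups and none lay at background, whereas 3 of 6 epididymis genes lay at background. Arrays of a group correlated at 0.976 to 0.995. Background, taken as each array's mean over 1192 olfactory and vomeronasal receptor rows, split the arrays into 5 at 6.75 to 6.84 and 9 at 6.30 to 6.56. Each group holds arrays of both kinds, and the Western-fed WT group holds 1 array of higher background, replicate 1. All values below are on the log2 scale. Levels of different genes are not set against each other, since each probe set has its own response.

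After Western diet in WT, 3 of 39 members (7.69%) passed an adjusted p under 0.05 (limma, Benjamini-Hochberg over 19937 genes), all 3 receptors and all higher. They were Tnfrsf21, a death domain receptor, Tnfrsf10b, the receptor through which TRAIL kills mouse cells, and Tnfrsf23, a decoy receptor for TRAIL. The share over all genes was 5.49% in either direction and 3.19% higher. EKO fat on Western diet, against WT fat on the same diet, was lower for 4 of 39 members (10.3%). These were Tnfrsf21, Tnfrsf23, Tnfrsf10b and Tnfrsf1b, the second receptor of TNF. Over all genes 5.69% passed there in either direction and 4.05% were lower. No ligand passed in any comparison, and 35 members passed in none. The comparison of diets in WT and that of genotypes on Western diet share the 3 Western-fed WT arrays, so their calls are not independent.

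**Figure D1:**
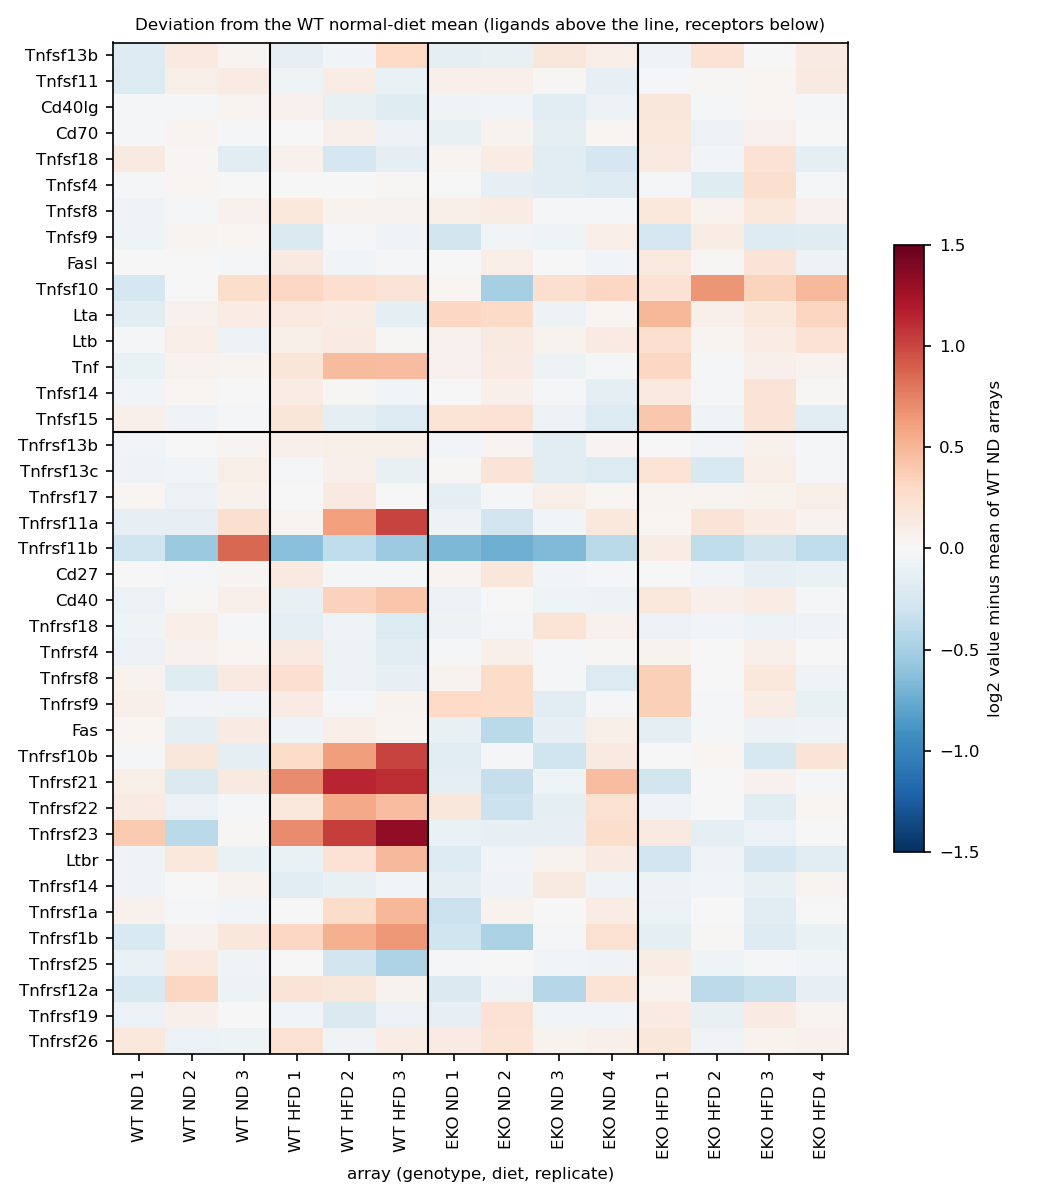
Deviation of each of the 39 genes (rows, ligands above the line) from its mean over the WT normal-diet arrays, for each of the 14 arrays (columns), on the log2 scale. Red cells of Tnfrsf21, Tnfrsf23, Tnfrsf10b and Tnfrsf11a stand in the Western-fed WT arrays, where replicate 1 is paler than replicates 2 and 3, and Tnfrsf11b is red in WT replicate 3 on normal diet.

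Tnf, which encodes the founding ligand, stood at 7.55, 7.70 and 7.69 in the WT arrays on normal diet and at 7.83, 8.12 and 8.12 on Western diet. The EKO arrays read 7.71, 7.77, 7.58 and 7.62 on normal diet and 7.96, 7.63, 7.73 and 7.70 on Western diet. The WT groups did not overlap, but EKO replicate 1 on Western diet lay above WT replicate 1 on the same diet. The diet difference in WT was 0.37 ± 0.11 (adjusted p = 0.0563 in limma; fold 1.30), and in EKO 0.08 ± 0.09 (adjusted p = 0.946). Between the genotypes on Western diet Tnf differed by -0.27 ± 0.10 (adjusted p = 0.147). In none of these did Tnf pass. It passed for diet in WT with the background sets as a block (adjusted p = 0.0327) and within the 9 arrays of lower background (0.42 ± 0.09, adjusted p = 0.0154), where 2 arrays stand in each WT group. Of the 24 alternatives that could be run for Tnf there, 7 gave a call and 17 did not, with adjusted p values up to 0.233. Between genotypes on Western diet 3 of 24 gave a call and 21 did not, with adjusted p values up to 0.505 in limma. The 3 were the arrays of lower background, array weights and leaving out WT replicate 1 on Western diet. For the interaction, 1 of 23 alternatives gave a call, that with array weights.

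Both receptors of TNF were measured. Tnfrsf1a, the death domain receptor found on most cells, had means of 11.25 ± 0.06 and 11.50 ± 0.25 in WT on normal and Western diet (SD, n = 3 each). In EKO the means were 11.21 ± 0.19 and 11.18 ± 0.08 (SD, n = 4 each). Its diet difference in WT, 0.26 ± 0.13, did not pass (adjusted p = 0.348 in limma).

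Tnfrsf1b, which lacks a death domain and is prominent on immune and endothelial cells, read 9.51, 9.80 and 9.92 in WT on normal diet. On Western diet the WT arrays read 10.06, 10.27 and 10.40. The EKO arrays gave 9.44, 9.27, 9.73 and 9.97 on normal diet and 9.61, 9.76, 9.55 and 9.65 on Western diet. Every Western-fed WT array lay above all the other 11. Tnfrsf1b fell short of the threshold for diet in WT (0.50 ± 0.16, adjusted p = 0.0902 in limma). It passed there with the background sets as a block (adjusted p = 0.0145), but 21 of 25 alternatives gave no call. On Western diet Tnfrsf1b was lower in EKO than in WT (-0.60 ± 0.15, adjusted p = 0.0292, fold 1.52). That call was lost when WT replicate 2 or 3 or EKO replicate 1, 3 or 4 of the Western-fed mice was left out. In the 9 arrays of lower background the genotype difference was -0.64 ± 0.15, and in those of higher background, which hold 1 WT array on that diet, it was -0.48.

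Tnfrsf21 read 10.01, 9.70 and 10.06 in WT on normal diet and 10.63, 11.07 and 11.03 in WT on Western diet. The EKO arrays gave 9.79, 9.57, 9.85 and 10.39 on normal diet and 9.65, 9.92, 9.98 and 9.90 on Western diet. The 3 Western-fed WT arrays lay above the other 11, of which EKO replicate 4 on normal diet came nearest. The gene rose by 0.99 ± 0.18 with diet in WT (fold 1.98, adjusted p = 0.0054 in limma). In EKO the diet difference was -0.04 ± 0.16 (adjusted p = 0.98). On Western diet Tnfrsf21 was lower in EKO than in WT (-1.05 ± 0.17, adjusted p = 0.00273). Both calls held under each of the 25 alternatives, which include leaving out each array in turn. The diet rise in WT was 1.17 ± 0.19 in the arrays of lower background and 0.62 between the single pair of higher background.

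The remaining calls fell in the TRAIL group. TRAIL, encoded by Tnfsf10, kills through Tnfrsf10b in the mouse, and the products of Tnfrsf22 and Tnfrsf23 bind it without passing on the signal. Tnfrsf10b read 8.33, 8.52 and 8.20 in WT on normal diet and 8.63, 8.97 and 9.36 on Western diet. In EKO it read 8.19, 8.33, 8.05 and 8.48 on normal diet, and 8.34, 8.37, 8.11 and 8.54 on Western diet. The Western-fed WT arrays again lay above all others, with replicate 1 only just so. The rise in WT was 0.64 ± 0.17 (fold 1.56, adjusted p = 0.039 in limma), and EKO was lower on Western diet by -0.64 ± 0.16 (adjusted p = 0.0272). The diet call was lost when any of the 3 normal-fed WT arrays was left out, or Western-fed WT replicate 2 or 3, normal-fed EKO replicate 1 or Western-fed EKO replicate 2. The genotype call was lost without WT replicate 2 or 3 or EKO replicate 1, 2 or 3 of the Western-fed mice. Fitted on the compared groups alone, neither call held. Within the arrays of lower background the differences were 0.81 ± 0.18 and -0.71 ± 0.18, against 0.30 and -0.40 in those of higher background.

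Tnfrsf23 read 8.52, 7.73 and 8.15 in WT on normal diet, a wide spread, and 8.84, 9.17 and 9.46 on Western diet. The EKO arrays read 8.03, 8.01, 8.00 and 8.39 on normal diet and 8.27, 8.00, 8.04 and 8.13 on Western diet. Diet raised it by 1.02 ± 0.19 in WT (fold 2.03, adjusted p = 0.00516 in limma), while the difference in EKO was -4.7e-05 ± 0.16. On Western diet it was lower in EKO (-1.05 ± 0.17, adjusted p = 0.00312). The diet call was lost when the WT arrays were fitted alone (adjusted p = 0.0621). The diet rise was 1.38 ± 0.18 in the arrays of lower background and 0.32 between the pair of higher background.

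Tnfrsf22, next to Tnfrsf23 on chromosome 7, had means of 9.14 ± 0.11 and 9.54 ± 0.21 in WT (SD, n = 3 each) and 9.13 ± 0.26 and 9.10 ± 0.09 in EKO (SD, n = 4 each). Its WT groups did not overlap, but neither the diet difference (0.40 ± 0.14, adjusted p = 0.135 in limma) nor the genotype difference on Western diet (-0.44 ± 0.13, adjusted p = 0.0673) passed. In the 9 arrays of lower background both passed (0.58 ± 0.12, adjusted p = 0.0178, and -0.50 ± 0.12, adjusted p = 0.0376), against 0.04 and -0.27 in those of higher background. The genotype difference also passed with the background sets as a block (adjusted p = 0.0355). Tnfrsf26, the third gene of that row, lay at 6.87 to 6.99 in the group means, close to background, and differed by 0.09 ± 0.10 with diet in WT. The genes of this row are close relatives, and how far their probes separate them was not tested. The ligand Tnfsf10 had means of 9.03 ± 0.27 and 9.28 ± 0.06 in WT (SD, n = 3 each) and of 9.06 ± 0.37 and 9.46 ± 0.20 in EKO (SD, n = 4 each). Its diet differences were 0.25 ± 0.19 in WT and 0.40 ± 0.16 in EKO (adjusted p = 0.634 and 0.946 in limma).

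**Figure D2:**
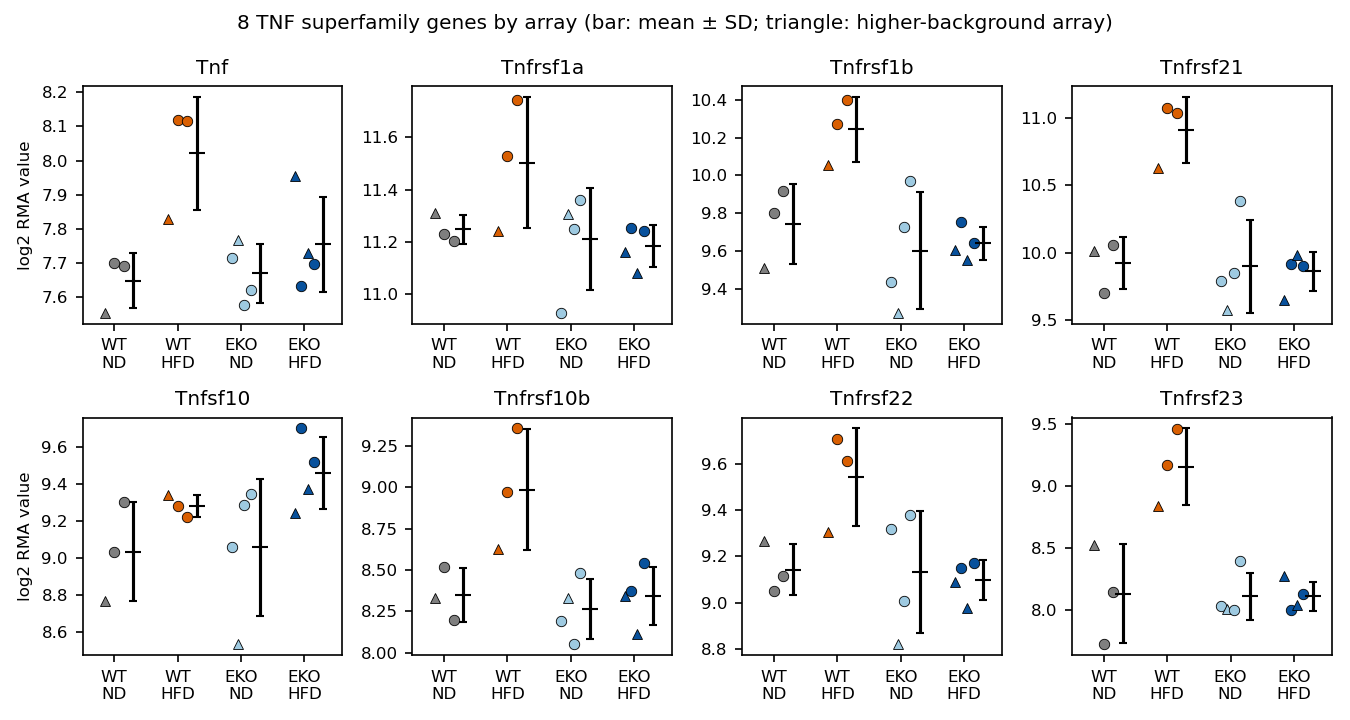
Log2 values of 8 members in each array by genotype and diet, with the group mean ± SD beside the points and arrays of higher background as triangles. The Western-fed WT arrays lie above all others for Tnfrsf1b, Tnfrsf10b, Tnfrsf21 and Tnfrsf23. The WT groups do not overlap for Tnf and Tnfrsf22, and Tnfrsf1a and Tnfsf10 overlap between diets in both genotypes.

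RefSeq (GRCm38.p6) gave promoter windows for 30 of the 39 members, among them 3 of the 4 that passed in any comparison: Tnfrsf1b, Tnfrsf21 and Tnfrsf23, but not Tnfrsf10b. They are shown with that of Tnf to let the start regions be compared. Printed are the 250 bases before the start, on the gene's own strand. Tnf lies at chr17:35202008-35202257 (minus), Tnfrsf1b at chr4:145246871-145247120 (minus), Tnfrsf21 at chr17:43016305-43016554 (plus) and Tnfrsf23 at chr7:143685876-143686125 (minus). Capitals mark matches, on either strand, to GAGGAA, the core bound by the myeloid factor PU.1, or to TATAAA, the TATA box.
Tnf: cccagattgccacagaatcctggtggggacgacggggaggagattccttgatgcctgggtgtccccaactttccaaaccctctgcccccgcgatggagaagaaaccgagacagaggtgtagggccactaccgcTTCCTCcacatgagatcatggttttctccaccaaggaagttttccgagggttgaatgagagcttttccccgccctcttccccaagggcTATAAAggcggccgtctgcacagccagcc
Tnfrsf1b: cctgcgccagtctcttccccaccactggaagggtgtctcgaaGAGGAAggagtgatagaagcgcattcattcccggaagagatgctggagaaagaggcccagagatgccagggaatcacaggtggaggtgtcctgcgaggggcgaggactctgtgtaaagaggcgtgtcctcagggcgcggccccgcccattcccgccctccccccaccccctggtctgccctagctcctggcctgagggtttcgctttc
Tnfrsf21: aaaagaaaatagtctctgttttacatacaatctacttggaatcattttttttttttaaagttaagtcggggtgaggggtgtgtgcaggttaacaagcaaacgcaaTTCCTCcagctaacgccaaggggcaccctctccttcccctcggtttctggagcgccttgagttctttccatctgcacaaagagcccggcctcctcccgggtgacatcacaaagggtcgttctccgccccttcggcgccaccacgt
Tnfrsf23: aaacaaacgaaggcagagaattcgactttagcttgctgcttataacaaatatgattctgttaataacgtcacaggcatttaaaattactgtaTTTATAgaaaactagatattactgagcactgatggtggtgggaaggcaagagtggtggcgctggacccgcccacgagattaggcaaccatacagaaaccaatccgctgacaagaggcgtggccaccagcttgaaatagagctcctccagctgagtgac
GAGGAA occurred in the windows of Tnf, Tnfrsf1b and Tnfrsf21, and was held by 10 of the 30 member windows (33.3%) and by 28.3% of all 32851 windows of 300 bases, which add 50 bases after the start. TATAAA occurred in those of Tnf and Tnfrsf23, in 6 members (20%) and in 13.6% of all. In Tnf it begins 29 bases before the start, where a TATA box is usually found, while in Tnfrsf23 it lies on the other strand and begins 158 bases before the start. The NF-kB motif, searched as GGGRNNYYCC (R is A or G, Y is C or T, N is any base), was in 2 member windows. These were Ltb and Tnfrsf8, and 8.46% of all windows held it. The AP-1 motif TGANTCA was in 4 member windows (Fas, Tnfrsf8, Tnfsf13b and Tnfsf14) and in 7.81% of all. Neither pattern lay in the 4 windows shown, and sites that depart from these patterns were not searched. The motifs searched did not overlap there. The windows of Tnfrsf1b and Tnf are GC-rich (62.8% and 57.6%), and that of Tnfrsf23 holds 44.8%.

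The 14 ligands other than Tnf differed by -0.11 to 0.25 with diet in WT, and none passed. Lta and Ltb flank Tnf on chromosome 17 and encode the lymphotoxins, which shape lymphoid tissue. They differed by 0.04 ± 0.14 and 0.08 ± 0.08, against the 0.37 of Tnf between them. For 6 ligands all group means lay at or below the highest array background: Cd40lg, Fasl, Tnfsf4, Tnfsf8, Tnfsf9 and Tnfsf14, mostly products of activated immune cells. Their array values lay between 5.86 and 6.93. Against each array's own background, Cd40lg, Tnfsf4, Tnfsf8 and Tnfsf14 lay at or below it on all 14 arrays, Tnfsf9 on 7 and Fasl on 1. Tnfsf13b, the B cell survival factor BAFF, differed by 0.04 with diet in WT.

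The costimulatory receptors of T and B cells did not pass over all 14 arrays: the 6 of them (Cd27, Cd40, Tnfrsf4, Tnfrsf8, Tnfrsf9 and Tnfrsf18) ran from -0.13 to 0.22 with diet in WT and from -0.14 to 0.10 between genotypes on Western diet. Cd40, through which T cells activate macrophages and B cells, was the highest of them with diet in WT (0.22 ± 0.12, adjusted p = 0.4 in limma). Within the 9 arrays of lower background Cd40 passed, for diet in WT (0.33 ± 0.09, adjusted p = 0.0373) and between genotypes on Western diet (-0.36 ± 0.09, adjusted p = 0.0361). In the arrays of higher background the signs were turned (-0.02 and 0.25). The 3 B cell receptors Tnfrsf13b, Tnfrsf13c and Tnfrsf17 ran from -0.02 to 0.08 in WT. Fas, a death domain receptor like Tnfrsf21, differed by 0.02 ± 0.11 with diet in WT, and did not pass. Of the 5 death domain receptors among the members (Fas, Tnfrsf1a, Tnfrsf10b, Tnfrsf21 and Tnfrsf25) 2 passed there, against 5.49% of all genes. Both are among the 3 members called above, so the count is not a separate result. The median of the 5 was 0.26, beside -0.02 over all genes.

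The osteoclast system gave uneven values. Tnfrsf11a, the receptor RANK, read 8.36, 8.37 and 8.73 in WT on normal diet and 8.53, 9.10 and 9.50 on Western diet, so the groups overlapped. Its difference of 0.56 ± 0.19 did not pass (adjusted p = 0.115 in limma), although it passed in the 9 arrays of lower background (0.75 ± 0.16, adjusted p = 0.0182). It also passed with the background sets as a block (adjusted p = 0.0313). The ligand Tnfsf11 differed by -0.02 with diet in WT. Tnfrsf11b, the soluble decoy osteoprotegerin, read 8.89, 8.63 and 10.05 in WT on normal diet, and replicate 3 stood above every other array. Its diet difference was -0.52 ± 0.26 in WT and 0.39 ± 0.23 in EKO. Without that array the difference in WT means was -0.09. Ltbr, the lymphotoxin receptor (0.20 ± 0.14), Tnfrsf12a, the receptor of TWEAK (0.14 ± 0.17), and Tnfrsf25, a death domain receptor of T cells (-0.24 ± 0.11), did not pass for diet in WT. Within the arrays of lower background Tnfrsf25 was lower (-0.42 ± 0.10, adjusted p = 0.0297), while between the pair of higher background it differed by 0.10. Tnfrsf14 and Tnfrsf19 differed by -0.10 ± 0.09 and -0.12 ± 0.10.

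**Figure D3:**
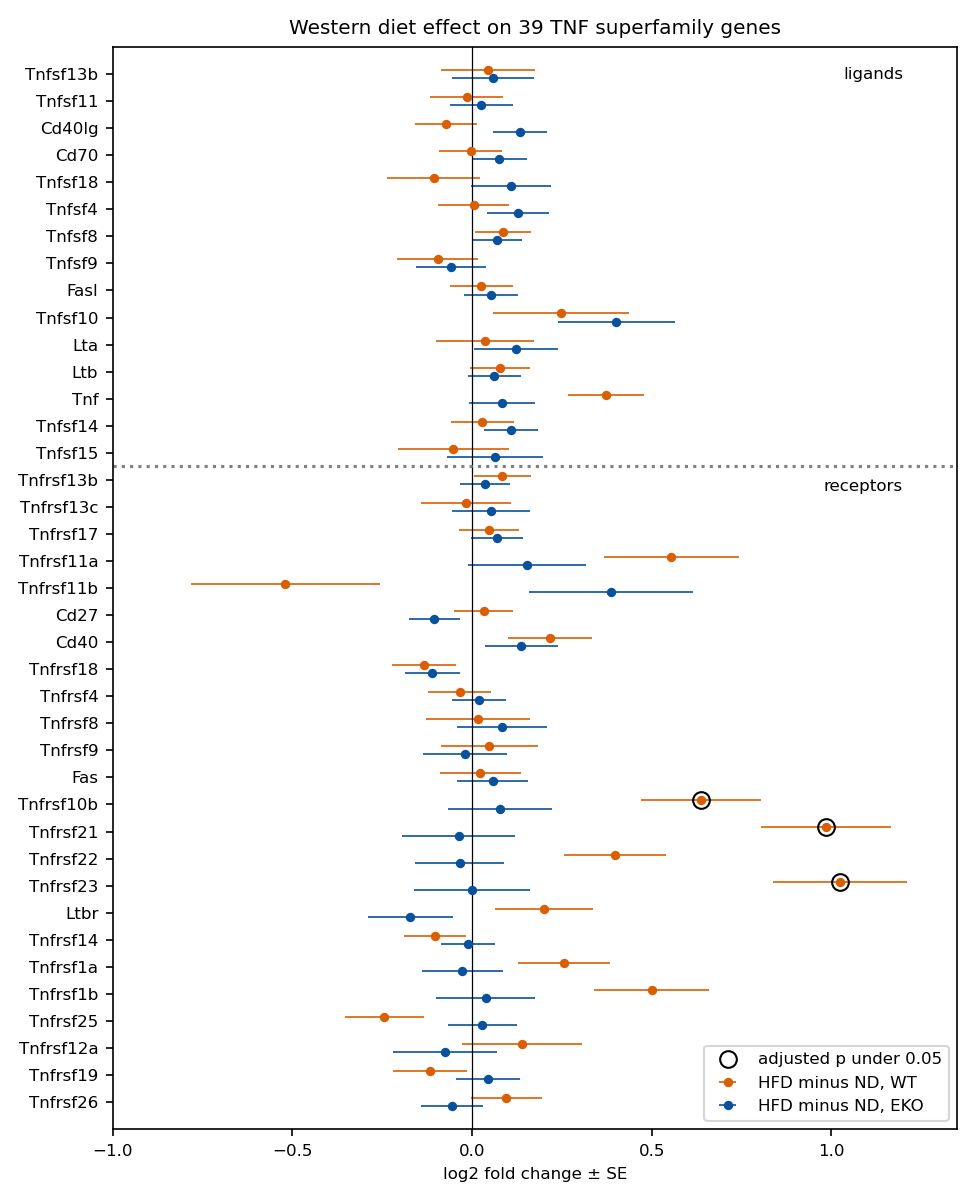
Log2 fold change of Western against normal diet (± SE) for the 39 members in WT (orange) and EKO (blue), with calls circled. The circled values, 0.64, 0.99 and 1.02, are those of Tnfrsf10b, Tnfrsf21 and Tnfrsf23 in WT, and the blue points of the same genes lie between -0.04 and 0.08.

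At looser thresholds the members' shares lay near those of all genes. With diet in WT 8 of 39 (20.5%) had an unadjusted p under 0.05, against 16.9% of all genes, and the WT groups did not overlap for 7 members (17.9%), against 20% of all. The median of the 39 differences was 0.04, beside -0.02 over all genes. A difference of under 0.25 either way was found for 30 members.

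In EKO, no member and no gene passed for diet (0% of all genes in limma). Only Tnfsf10 had an unadjusted p under 0.05 (1 of 39, 2.56%; all genes 4.43%). The EKO groups did not overlap for 2 members, Cd40lg and Tnfrsf11b (5.13%; all genes 2.56%), and the former lies at background. A difference under 0.25 either way was found for 37 members.

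On normal diet no member differed between the genotypes in limma, where 0.00502% of all genes, Apoe alone, passed. The 1 member with an unadjusted p under 0.05 was Tnfrsf11b (-0.62 ± 0.25; all genes 1.13%), and without WT replicate 3 the difference of means was -0.19. Cd40lg was the only member whose groups did not overlap (all genes 1.72%). The differences of Tnfrsf21, Tnfrsf23, Tnfrsf10b and Tnfrsf1b were -0.02 ± 0.17, -0.02 ± 0.17, -0.08 ± 0.16 and -0.14 ± 0.15.

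Between genotypes on Western diet, 11 of 39 members (28.2%) had an unadjusted p under 0.05, 10 of them lower in EKO, against 19.3% of all genes. The groups did not overlap for 7 members (17.9%; all genes 16.6%), all lower in EKO. They were the 4 that passed, Tnfrsf22, Tnfrsf12a (-0.34 ± 0.16, adjusted p = 0.249 in limma) and Tnfrsf13b (-0.08 ± 0.07). Ltbr (-0.39 ± 0.13, adjusted p = 0.0935), Tnfrsf1a (-0.32 ± 0.12, adjusted p = 0.153) and Tnfrsf11a (-0.46 ± 0.18, adjusted p = 0.159) did not pass. Tnfrsf25 was the only member above 0 with an unadjusted p under 0.05 (0.24 ± 0.10, adjusted p = 0.206). The 14 ligands other than Tnf ran from -0.03 to 0.23. Over the 24 receptors the median was -0.09, beside 0.03 over all genes.

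**Figure D4:**
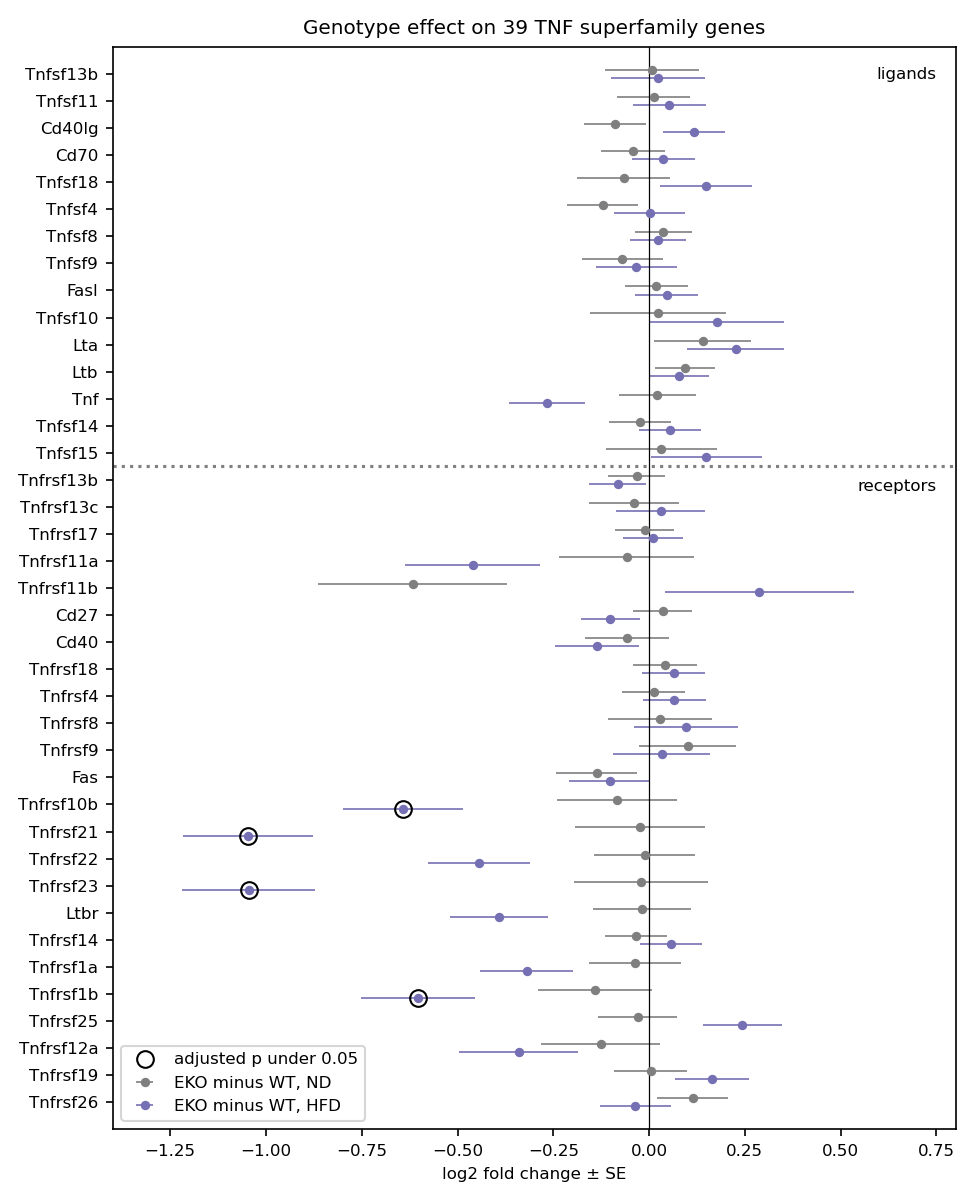
Log2 fold change of EKO against WT (± SE) for the 39 members on normal diet (grey) and Western diet (purple), with calls circled. Tnfrsf10b, Tnfrsf21, Tnfrsf23 and Tnfrsf1b are circled on Western diet at -0.64, -1.05, -1.05 and -0.60, and grey points lie near 0 except Tnfrsf11b at -0.62.

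Whether the diet effect depended on genotype was tested as the interaction, the diet difference in EKO minus that in WT. No member passed in limma, against 0.482% of all genes. The smallest p values were those of Tnfrsf21 (-1.02 ± 0.24, adjusted p = 0.0793) and Tnfrsf23 (-1.02 ± 0.25, adjusted p = 0.0872). An unadjusted p under 0.05 was found for 6 members (15.4%; all genes 10.8%): these receptors, Tnfrsf10b (-0.56 ± 0.22), Tnfrsf1b (-0.46 ± 0.21), Tnfrsf22 (-0.43 ± 0.19) and, with the opposite sign, Tnfrsf11b (0.91 ± 0.35; 0.48 without WT replicate 3 on normal diet). Tnfrsf21 and Tnfrsf23 passed in the arrays of lower background (adjusted p = 0.0362 and 0.0184), where 2 arrays stand in each WT group, and without WT replicate 1 on Western diet. Most alternatives gave no call: 17 of 24 for Tnfrsf21 and 18 of 23 for Tnfrsf23, with adjusted p values up to 0.246 and 0.275 in limma.

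Macrophage markers differed in the same comparisons as the receptors, as did some markers of other cells, given below. Of 12 macrophage genes 7 were higher with diet in WT (58.3%, against 3.19% of all genes). On Western diet 7 were lower in EKO (58.3%, against 4.05% of all genes), and none of the 12 lay at background. Their mean level over the list ran from 9.80 to 10.04 in WT on normal diet and from 10.69 to 11.26 on Western diet, and in EKO from 9.46 to 10.43 and from 9.89 to 10.29. Within groups the receptors and the markers ran in the same order in some cases and not in others. In Western-fed WT, Tnfrsf1b, Tnfrsf10b and Tnfrsf23 followed the order of the macrophage level, while Tnfrsf21 and Tnfrsf22 were highest in replicate 2. EKO replicate 4 on normal diet had the highest macrophage level of its group and also the highest Tnfrsf1b, Tnfrsf10b, Tnfrsf21, Tnfrsf22 and Tnfrsf23. EKO replicate 2 on Western diet had the highest macrophage level of its group (10.29) and the highest Tnfrsf1b (9.76), but the lowest Tnfrsf23. WT replicate 3 on normal diet had the highest macrophage level of its group (10.04). It also had the highest Tnfrsf1b (9.92) and Tnfrsf21 (10.06) there, but the lowest Tnfrsf10b. The part of macrophages in the receptor values was not tested, and in whole tissue a change in the number of cells of a type cannot be told apart from a change of RNA per cell. All marker lists were chosen with earlier results of these data known, so their shares are not a test. Among markers of other cells, 1 of 7 T cell, 2 of 6 dendritic cell, 1 of 6 NK cell and 1 of 5 neutrophil genes were higher with diet in WT, and 0 of 6 B cell, 0 of 5 mast cell and 0 of 6 endothelial genes passed. Mesothelial genes were lower with diet in WT (5 of 6, 83.3%), as were 2 of 8 adipocyte genes (25%). Over all genes 5.49% passed there in either direction. Stromal progenitor genes did not pass with diet in WT (0 of 5). Between genotypes on Western diet, 2 of 6 dendritic cell genes were also lower in EKO (33.3%, against 4.05% of all genes). Of 8 adipocyte genes, 2 were higher there and 1 was lower (37.5%, against 5.69% of all genes in either direction). In addition, 1 of 5 stromal progenitor genes was lower (20%) and 1 of 6 mesothelial genes was higher (16.7%). No T cell, B cell, NK cell, mast cell, neutrophil or endothelial marker passed there.

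**Figure D5:**
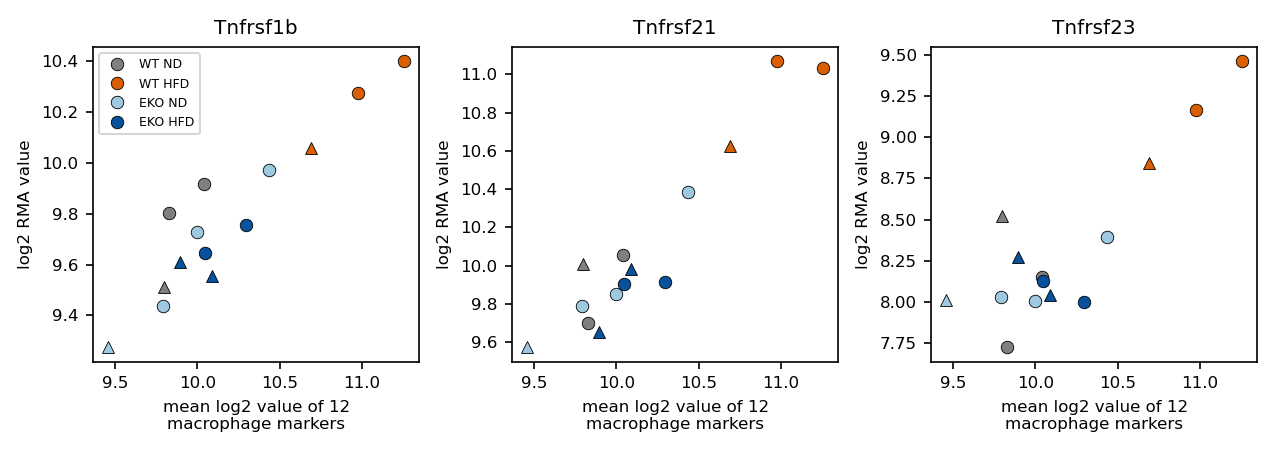
Log2 value of Tnfrsf1b, Tnfrsf21 and Tnfrsf23 (vertical axes) against the mean log2 level of 12 macrophage markers (horizontal axes) in each of the 14 arrays, coloured by group, with arrays of higher background as triangles. The Western-fed WT arrays lie at the upper right of each panel, at a marker level of 10.69 to 11.26.

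Below the receptors, 35 genes of the adaptors, kinases, caspase regulators and NF-kB factors were measured. With diet in WT 0 passed as higher and 1 as lower (2.86%, against 5.49% of all genes): Tab3, an adaptor of the kinase TAK1 (-0.84 ± 0.12, adjusted p = 0.00101 in limma). An unadjusted p under 0.05 was found there for 11 (31.4%, against 16.9% of all genes), 9 of them higher. Between genotypes on Western diet 1 was higher in EKO and 4 were lower (11.4%, against 4.05% of all genes), and 14 (40%) had an unadjusted p under 0.05, against 19.3% of all genes. Tab3 was higher (0.55 ± 0.11). The NF-kB subunit genes Rel (-0.70 ± 0.19) and Nfkb2 (-0.57 ± 0.13) were lower, as were Nfkbib, an inhibitor of NF-kB (-0.61 ± 0.11), and Tnip1, a partner of the A20 brake (-0.50 ± 0.13). Tab3 also passed for the interaction (0.81 ± 0.16, adjusted p = 0.0355), 1 of 35. The median of the list was 0.07 with diet in WT and -0.20 between genotypes on Western diet. No gene of the list passed for diet in EKO or for genotype on normal diet. The list was chosen with earlier results of these data known, so its shares are not a test.

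Tnf and its receptors are cut from the cell surface by proteases, of which Adam17 is the main one. None of 7 genes of this step passed in any comparison, and for Adam17 itself the differences were 0.48 ± 0.19 with diet in WT (adjusted p = 0.179 in limma) and -0.60 ± 0.17 between genotypes on Western diet (adjusted p = 0.0578). Of 5 superfamily genes outside the symbol rule (Eda, Edar, Eda2r, Ngfr and Relt), 1 passed: Eda2r, a receptor of ectodysplasin, was lower in EKO on Western diet (-0.50 ± 0.13, adjusted p = 0.0397).

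Of 20 measured genes that TNF is known to induce, 4 were higher and 2 were lower with diet in WT (30% in either direction, against 5.49% of all genes). Saa3, an acute phase protein made in fat (2.24 ± 0.32), and the matrix protease gene Mmp3 (0.83 ± 0.17) were highest among those that rose, before Sod2 and Vcam1. The falls were those of Mmp9 (-1.31 ± 0.22) and Ptgs2, which encodes an enzyme of prostaglandin synthesis (-0.83 ± 0.20). Between genotypes on Western diet 6 were lower in EKO (30%, against 4.05% of all genes) and 0 were higher. Among them were Saa3 (-2.09 ± 0.30), the monocyte chemokine gene Ccl2 (-1.35 ± 0.27) and Plau (-0.83 ± 0.21). Saa3 was also the 1 gene of the list that passed for the interaction (-2.44 ± 0.43, adjusted p = 0.0203 in limma). The list's medians were 0.21 and -0.16 in these comparisons, and no gene passed for diet in EKO or for genotype on normal diet. Many of these genes also answer to other cytokines. The list was chosen with earlier results of these data known, so its shares beside those of all genes are not a test.

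On the chromosomes, the members lie in part as neighbours, and neighbours did not pass together in the main fit. Tnfrsf22 and Tnfrsf23 did so in the 9 arrays of lower background, for diet in WT and between genotypes on Western diet. Tnfrsf1b adjoins Tnfrsf8 on chromosome 4, which differed by 0.02 with diet in WT. Tnfrsf22 lies between Tnfrsf26 and Tnfrsf23 on chromosome 7, with differences of 0.09, 0.40 and 1.02 along the row. On chromosome 6, Cd27, Ltbr and Tnfrsf1a follow each other with 1 coding gene between each pair, and differed by 0.03, 0.20 and 0.26. Tnfsf9, Cd70 and Tnfsf14 on chromosome 17 and Tnfsf4, Tnfsf18 and Fasl on chromosome 1 are runs of ligands of which none passed.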

How the data were processed

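The authors deposited 1 table of log2 values for 34760 probe sets and 14 arrays, for which the submitters' processing notes name RMA; its version and settings are not stated in any source used here. RMA in its usual form brings the arrays to a common distribution, which removes a shift common to most genes. The deposited arrays still differed, with medians over all rows of 7.92 to 8.10 and the split in background given above. How fully such a shift was removed here is not known. The deposited log2 values were used as they stand. Rows with 1 gene symbol in the platform annotation (21640) gave 19937 genes, with the probe set of the highest mean kept where a gene had several (954 genes, no member). The build behind the array's annotation is not stated; RefSeq tables of GRCm38.p6 served for promoters and gene order.

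Contrasts were fitted in limma 3.58.1 (R 4.3.3; lmFit with 1 mean per group, eBayes; 10 residual degrees of freedom), two-sided, and adjusted by Benjamini-Hochberg over 19937 genes at 0.05. A level of 6.84 or less counted as background, that being the highest mean of the chemosensory receptor rows on any array. Values of every array were given for Tnf and each member that passed, and group means for their partners; of each gene list up to 4 genes that passed are named. Further members were named after their values were seen. The members and lists were chosen with earlier results of these data known. Alternatives concerned the arrays fitted, background, scaling, prior, array weights, dim genes, probe sets, a replicate block and leaving out each array. The number of arrays limits the precision. Figures were drawn with matplotlib 3.10.9.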

Additional observations from a re-analysis of the deposited data

Results flagged for a closer look

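In EKO on normal diet Tnfrsf23 read 8.39 in replicate 4, while the other 3 arrays lay between 8.00 and 8.03. The gap took up 0.927 of the group's range, above Dixon's critical value for a group of that size. It was the only such case among 78 groups of 4 checked over the 39 members, where chance alone flags about 1 in 20.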

How the results depend on the processing

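For diet in WT 3 members passed, against 1 when the WT arrays were fitted alone, 6 with the background sets as a block, 8 in the 9 arrays of lower background, 5 after quantile normalization and 13 with array weights. Leaving out 1 array gave 2 to 8, the 8 without WT replicate 1 on Western diet. For genotype on Western diet 4 passed, against 8 in the arrays of lower background and 13 with array weights, and 2 to 11 with 1 array left out, the 11 without that same array. For the interaction 0 passed, against 1 with the background sets as a block, 2 in the arrays of lower background, 2 after quantile normalization, 6 with array weights and 0 to 2 with 1 array left out. Array weights also raised the calls over all genes, for diet in WT from 1094 to 5224. Diet in EKO and genotype on normal diet had 0 members under every alternative run. No called value changed sign. The cause of these moves was not tested. Apart from array weights for diet in WT, the counts stand without the share of all genes called under the same alternative. They are thus not read as moves particular to the members. Arrays were fitted as unpaired, and these values do not settle whether replicate numbers mark pairs. In each comparison 2 same-numbered pairs had deviations correlating above 0.1 (from -0.593 to 0.644 over all). The same-numbered array was the best match in 2 of 3 pairs for genotype on Western diet. It was so in 1 of 3 for diet in WT, 1 of 4 for diet in EKO and 0 of 3 for genotype on normal diet. A replicate block gave 3, 0, 0 and 6 members for the pairwise comparisons (Tnfrsf22 and Ltbr added for genotype on Western diet) and 1, Tnfrsf21, for the interaction. Scaling moved the median of all genes by at most 0.016.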
